A study of Mus musculus with 8 samples.

Results

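The anoctamins are a family of membrane proteins, also called TMEM16 proteins, encoded in the mouse by the 10 genes Ano1 to Ano10. Their messenger RNA was followed in single neurons of the ventrolateral ventromedial hypothalamus that express estrogen receptor-α (ERα vlVMH neurons). Members were taken by gene symbol, so that all 10 genes are covered, out of 16583 genes listed in any of 7 neurons. The 8 neurons came from female ERα-ZsGreen mice, in which the mouse ERα promoter drives the ZsGreen reporter, on a C57BL6/J background, and every neuron shared this genotype. In patch-clamp recordings with glucose taken from 5 mM to 1 mM and back, glucose-excited (GE) neurons 1, 4, 6 and 8 hyperpolarized at 1 mM, and glucose-inhibited (GI) neurons 2, 3, 5 and 7 depolarized. Each neuron was then collected by hand and sequenced as a library of its own, a procedure known as Patch-seq. The neurons came from 2 mice and are not assigned to them in the labels, so each class counts as 1 sample and all differences between classes are given as descriptions, with no P value.

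Anoctamins share a fold in which calcium ions bind within the membrane and open a path for ions, for lipids or for both. Some members are chloride channels of the cell surface, some are scramblases, which move phospholipids between the leaflets of a membrane, and some work on inner membranes, where they bear on calcium stores and on contacts between organelles. In neurons, a chloride conductance opened by calcium can raise or lower excitability, depending on the chloride gradient. Here Ano1, Ano2 and Ano6 were grouped as plasma membrane members and Ano5, Ano8 and Ano10 as intracellular members. For Ano3, Ano4, Ano7 and Ano9 the place in the cell is disputed, and they were kept apart. Ano4 was the member that the study followed up, chosen on these same neurons, and its difference between the classes here is therefore no independent evidence. The study's qPCR, inhibitor and knockout experiments on Ano4 used further neurons and are not examined here.

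Because the family shares ancestry, the gene models were first compared to see whether reads of 100 bases could be placed on 1 member. In GENCODE vM21 on GRCm38, the likest ungapped coding windows of 100 bases held 57 to 87 identical bases over the 45 pairs of members, with a median of 73, and the highest value belonged to Ano1 and Ano2. No stretch of 100 bases was shared exactly between 2 members. Ano4 was most like Ano3, and Ano10, whose likest window was the least alike of the 10, was most like Ano8. These windows are shown because the results turn on Ano4 and Ano10, and capitals mark the bases at which the windows of a pair differ. The Ano4 window lies in exon 19 (chr10:88982186-88982285, minus strand) and the Ano3 window in exon 19 (chr2:110682673-110682772, minus strand), and they differ at 18 of 100 bases. The Ano10 window crosses from exon 9 to exon 10 (chr9:122253055-122257082, minus strand, intron included) and the Ano8 window from exon 13 to exon 14 (chr8:71479270-71480462, minus strand, intron included), and they differ at 33 bases.
Ano4: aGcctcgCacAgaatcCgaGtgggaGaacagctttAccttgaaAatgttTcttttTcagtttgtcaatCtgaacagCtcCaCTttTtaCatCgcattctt
Ano3: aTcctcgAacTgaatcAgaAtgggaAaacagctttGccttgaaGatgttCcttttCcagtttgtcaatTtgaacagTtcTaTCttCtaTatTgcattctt
Ano10: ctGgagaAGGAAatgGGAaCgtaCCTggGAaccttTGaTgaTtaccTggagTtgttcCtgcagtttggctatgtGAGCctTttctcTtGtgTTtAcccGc
Ano8: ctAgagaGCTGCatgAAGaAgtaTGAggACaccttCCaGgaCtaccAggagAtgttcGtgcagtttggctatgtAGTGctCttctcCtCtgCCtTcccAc

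No source used here states that the libraries keep the strand of a transcript, so exons shared with genes on the opposite strand were also counted. Ano6 shares 214 of its 12269 exon bases with A130051J06Rik and 122 with Gm49172, Ano8 shares 80 of 6847 with Dda1, and Ano3 shares 61 of 7218 with Muc15. The overlaps of Ano6 are longer than a read of 100 bases, and a read that lies within them cannot be told apart between the genes. Those of Ano8 and Ano3 are shorter than a read. The other 7 members have no exon base in common with another gene.

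Levels are FPKM (fragments mapped to a gene, divided by the length of its model and by the size of the library), as the authors computed them for each neuron, with a lower and an upper bound. Only genes above 0 are listed, and a member that is not listed was set to 0. The 7 deeper libraries held 6144126 to 14900568 reads. GI neuron 3 held 126914 reads, the study left it out, and its values are given apart. GE neuron 1 also stood apart, with 48.2% of reads mapped against 74.7% to 77.3% in the other 6. Reading the upper arm of the authors' interval as 2 SD of counting error gives the number of fragments behind each value. All 7 neurons listed the neuronal genes Snap25 and Stmn2, while Esr1, which encodes ERα, was listed in 4 of the 7. Genes that mark oligodendrocytes (7 of 7 genes), astrocytes (7 of 7) and microglia (7 of 7) were listed as well. Of 12 genes that every cell uses, picked after the data were seen, 11 were listed in all 7 neurons and Tfrc, the transferrin receptor, in 6, so a member that is not listed may still be present at a low level.

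Across the family, 8 of the 10 members were listed in at least 1 of the 7 neurons, 2 of them (Ano6 and Ano10) in every one. Together they filled 37 of 70 possible values, of which 16 rested on 10 or more fragments and 6 on fewer than 3. The 10 genes drew 454 fragments in all 7 neurons, so each value carries a wide counting error, and amplified reads are not independent molecules, which these intervals leave out. By the mean over the 7 neurons, the order ran from Ano10 (5.28 FPKM) through Ano3 (1.85), Ano6 (1.40), Ano4 (1.24), Ano8 (0.619), Ano7 (0.585) and Ano5 (0.226) to Ano1 (0.136), with Ano2 and Ano9 at 0. Ano10 stood at the 62.3 percentile of all listed genes and Ano3 at the 41.2 percentile. The ranges of every pair of neighbours in this order overlapped. Orders across genes also rest on the gene lengths behind the FPKM, which are not stated. In GE neuron 1, 1 fragment was worth 0.130 FPKM for Ano3 and 0.0545 FPKM for Ano6. In GENCODE vM21, however, the Ano3 transcript is the longer (6705 against 4927 bases). By fragments Ano6 was ahead of Ano3, with 67 against 48 in GE and 27 against 9 in GI neurons. Ano10 exceeded Ano3 in 6 of 7 neurons, whereas Ano3 exceeded Ano6 in 4 and Ano6 exceeded Ano4 in 3.

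**Figure D1:**
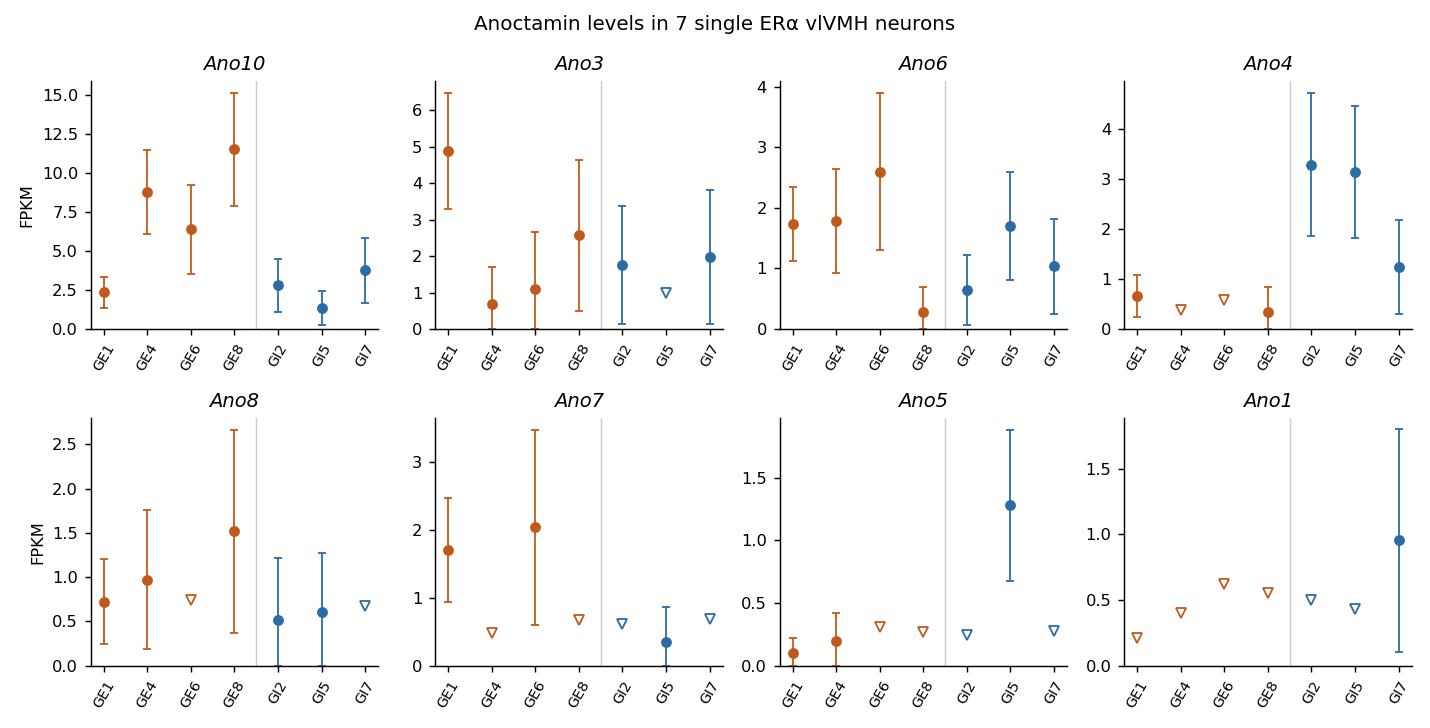
FPKM (y axis, scaled for each gene) of the 8 listed anoctamins in 4 GE neurons (orange) and 3 GI neurons (blue), with the authors' lower and upper bound as bars. Open triangles mark neurons that do not list the gene, at the FPKM that 3 fragments would give, and Ano4 is the member whose 3 GI values all lie above its 4 GE values.

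Among the plasma membrane members, Ano6 was listed in all 7 neurons, in 6 of them as the only listed member of its group. Ano6 (chr15:95790843-95974751, plus strand) encodes a calcium-dependent phospholipid scramblase that exposes phosphatidylserine on activated platelets. It lay at 1.74, 1.78, 2.60 and 0.286 FPKM in GE neurons 1, 4, 6 and 8, and at 0.650, 1.71 and 1.03 FPKM in GI neurons 2, 5 and 7. The lowest and the highest value were both in GE neurons, resting on 2 and 16 fragments, and the classes overlapped. The class means of Ano6 were 1.60 FPKM in GE against 1.13 FPKM in GI neurons, a log2 ratio of 0.29 (GE over GI, after adding 1 FPKM to both means) with a 95% counting interval of -0.09 to 0.69.

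Ano1 (chr7:144588549-144751974, minus strand), the calcium-activated chloride channel of epithelia, smooth muscle and sensory neurons, was listed in GI neuron 7 at 0.953 FPKM, from 5 fragments. It was listed in none of the other 6 neurons, where 3 fragments would have given 0.210 to 0.625 FPKM. Ano2 (chr6:125690419-126040126, plus strand), the chloride channel of olfactory sensory neurons, was listed in no neuron. For members that no neuron lists, the level that 3 fragments would give cannot be read from the tables. Over the 8 listed members and 7 neurons this level ran from 0.102 to 1.70 FPKM.

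Ano10 was the most abundant anoctamin by the mean over the 7 neurons and the highest member in 4 of them, while Ano3 was highest in GE neuron 1 and Ano4 in GI neurons 2 and 5. It was also the highest intracellular member in each of the 7, but by little in GI neuron 5. Ano10 stood there at 1.34 FPKM (bounds 0.245 to 2.43, 6 fragments) and Ano5 at 1.28 FPKM (0.677 to 1.89, 18 fragments). Ano10 lies at chr9:122175874-122294423 (minus strand), encodes a protein of inner membranes, and is mutated in a recessive form of human cerebellar ataxia. Ano10 lay at 2.36, 8.79, 6.39 and 11.5 FPKM in GE neurons 1, 4, 6 and 8, from 22, 42, 20 and 40 fragments. The GI neurons 2, 5 and 7 held 2.82, 1.34 and 3.76 FPKM, from 11, 6 and 13 fragments. GE neurons 4, 6 and 8 were therefore above all 3 GI neurons, while GE neuron 1 lay within the GI range, so that the classes overlapped. In 7 of the 12 pairs made of a GE and a GI neuron the intervals were apart, each time with the GE neuron higher, but they were also apart in 3 of the 6 pairs of GE neurons. Over 12389 genes with a class mean of at least 1 FPKM, intervals were apart in 32.0% of pairs between classes and in 33.0% of pairs of GE neurons. For a neuron that does not list a gene, these pairs take 0 as the lower bound and the level of 3 fragments as the upper, which does not arise for Ano10.

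The mean of Ano10 was 7.27 FPKM in GE against 2.64 FPKM in GI neurons, 2.75-fold higher in GE neurons, and its log2 ratio was 1.18 (counting interval 0.71 to 1.68). It was the 1 member past 2-fold on that scale in favour of GE neurons, as were 5.83% of the 12389 genes, and 3.66% of them had a higher ratio than Ano10. The ratio was under 2-fold without GE neuron 8 (0.91) or without GI neuron 5 (0.95), and 1.44 without GE neuron 1. GI neuron 3 listed Ano10 alone among the anoctamins, at 12.6 FPKM from a single fragment, and adding that neuron to the GI class brought the ratio to 0.43.

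The other intracellular members were sparse. Ano8 (chr8:71476019-71485963, minus strand) encodes a protein that ties the endoplasmic reticulum to the plasma membrane. It was listed at 0.722, 0.972 and 1.52 FPKM in GE neurons 1, 4 and 8 and at 0.518 and 0.604 FPKM in GI neurons 2 and 5. GE neuron 6 and GI neuron 7 did not list it, and no pair of neurons that both listed it had intervals apart. Ano5 (chr7:51511029-51598709, plus strand), whose human counterpart is mutated in a muscular dystrophy, reached 1.28 FPKM in GI neuron 5, from 18 fragments. Elsewhere Ano5 was listed in GE neuron 1 (0.102 FPKM) and GE neuron 4 (0.197 FPKM), from 3 fragments each. Without GI neuron 5, the log2 ratio of Ano5 went from -0.41 to 0.10, so that its GI mean of 0.427 FPKM rested on 1 neuron.

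Ano4 showed the opposite arrangement to Ano10. Ano4 (chr10:88948994-89344762, minus strand) is studied here as a calcium-activated chloride channel, and scramblase and cation channel activity have also been ascribed to it. In the GI neurons 2, 5 and 7 its level was 3.29, 3.15 and 1.25 FPKM, carried by 21, 23 and 7 fragments. GE neuron 1 held 0.656 FPKM (10 fragments), GE neuron 8 held 0.345 FPKM (2 fragments), and GE neurons 4 and 6 did not list it. Every GI value was thus above every GE value, and Ano4 was the 1 member of the 10 for which the classes did not overlap. The background for this is 2.01%, the share of the 12389 genes with every GI neuron above every GE neuron.

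Had Ano4 stood at its mean GI level of 2.57 FPKM, 20.4 and 13.0 fragments would have been seen in GE neurons 4 and 6, against none implied by the tables. The same level equals 37.5 and 14.8 fragments in GE neurons 1 and 8, against the 10 and 2 found. Weighted by depth, Ano4 was at 0.346 FPKM in GE neurons (exact Poisson 95% interval 0.185 to 0.627) and at 2.64 FPKM in GI neurons (1.98 to 3.49), intervals that cover counting error only. Intervals were apart in 8 of 12 pairs between classes, each time with the GI neuron higher. In 4 of these 8 both neurons listed Ano4, so that the authors' bounds were compared, out of 6 such pairs, and in the other 4 the level of 3 fragments stood in for the bound of GE neurons 4 and 6. The 4 pairs not apart were those of GI neuron 7, whose lower bound was 0.304 FPKM. Within a class, 4 pairs had both neurons listed, and 0 of them were apart.

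The mean of Ano4 was 10.3-fold higher in GI than in GE neurons (0.250 FPKM in GE neurons), a fold that went to 22.3 without GE neuron 1, to 7.69 without GE neuron 4 or 6 and to 7.63 when weighted by depth. Its log2 ratio with 1 FPKM added was -1.51 (counting interval -1.996 to -1.09). It was the 1 member past 2-fold in favour of GI neurons, a direction in which 4.40% of the genes lay past 2-fold, and 1.24% had a lower ratio than Ano4. Leaving out 1 neuron gave ratios from -1.76 to -1.36. GI neuron 3 did not list Ano4, but 1 fragment there would be worth 7.74 FPKM and 0.332 fragments would be seen at the mean GI level, so that library cannot show it. With GI neuron 3 counted as 0, the ratio was -1.23.

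Ano3 (chr2:110655201-110950923, minus strand) is mutated in a form of human dystonia, and was highest in GE neuron 1. GE neurons 1, 4, 6 and 8 held 4.88, 0.698, 1.09 and 2.56 FPKM, and GI neurons 2 and 7 held 1.75 and 1.98 FPKM, while GI neuron 5 did not list it. GE neuron 1, the library with the low mapped share, contributed 38 of the 48 GE fragments. Its log2 ratio of 0.56 (counting interval -0.09 to 1.31) went down to 0.13 without that neuron, and the classes overlapped.

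Ano7 (chr1:93373930-93404303, plus strand), best known from the prostate, was listed in GE neuron 1 (1.70 FPKM, 20 fragments), GE neuron 6 (2.04 FPKM, 8 fragments) and GI neuron 5 (0.355 FPKM, 2 fragments). The remaining GE neurons 4 and 8 and GI neurons 2 and 7 did not list Ano7, at 3-fragment levels of 0.488, 0.673, 0.614 and 0.691 FPKM. Its log2 ratio was 0.79 (counting interval 0.25 to 1.85), and 2 of the 4 GE neurons carried the GE mean. Ano9 (chr7:141101212-141117806, minus strand), known from epithelia, was listed in no neuron.

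**Figure D2:**
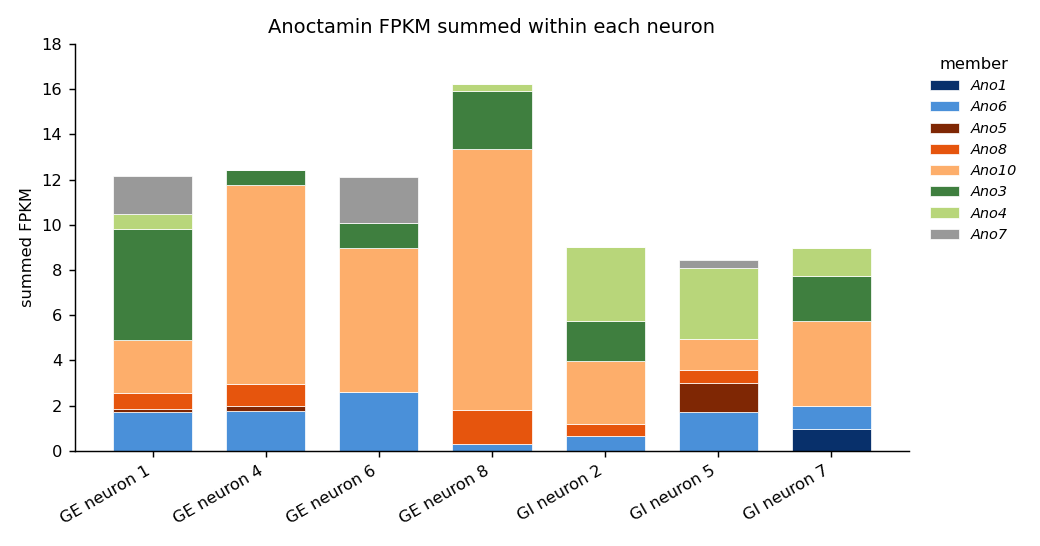
Stacked bars of FPKM (y axis) for the 8 listed anoctamins in 4 GE and 3 GI neurons, with blue for plasma membrane members, brown and orange for intracellular members, and green and grey for those of disputed place. The whole bar runs from 12.1 to 16.2 FPKM in GE and from 8.44 to 9.03 FPKM in GI neurons, and Ano10 and Ano4 take shares that differ between neurons.

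Summed over the 10 members, the family stood at 12.2, 12.4, 12.1 and 16.2 FPKM in GE neurons 1, 4, 6 and 8, and at 9.03, 8.44 and 8.98 FPKM in GI neurons 2, 5 and 7. All GE sums were above all GI sums, although the members that made them up differed from neuron to neuron, and 2.72% of single genes had every GE neuron above every GI neuron. The means of 13.2 ± 2.01 FPKM (SD, 4 neurons) and 8.82 ± 0.329 FPKM (SD, 3 neurons) gave a log2 ratio of 0.54 (counting interval 0.27 to 0.81). Ano10 alone held 7.27 FPKM of the GE mean and 2.64 FPKM of the GI mean, a gap no smaller than that between the sums. Class means of the other listed members differed too, in both directions, and these differences largely offset one another in the sum. Means were higher in GE neurons for 5 members (Ano3, Ano6, Ano7, Ano8 and Ano10) and higher in GI neurons for 3 (Ano1, Ano4 and Ano5).

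With the 4 members of disputed place left out, the intracellular members exceeded the plasma membrane members in 7 of 7 neurons. The ratio was 1.83 to 45.6 in GE and 1.89 to 5.13 in GI neurons. The highest ratio was that of GE neuron 8, with 13.0 FPKM of intracellular and 0.286 FPKM of plasma membrane members, the latter from 2 fragments. Intracellular members took 26.1% to 80.3% of the family's FPKM in GE neurons and 36.9% to 41.9% in GI neurons. Plasma membrane members took 1.76% to 21.5% and 7.20% to 22.1%.

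Between classes, the intracellular sum was 8.15 FPKM in GE against 3.44 FPKM in GI neurons, a log2 ratio of 1.04 (counting interval 0.66 to 1.44), and the ranges overlapped through GE neuron 1, which held 3.18 FPKM. Without GE neuron 8 this ratio was 0.76 and without GE neuron 4 it was 0.94. Ano10 made up 7.27 FPKM of the GE mean and 2.64 FPKM of the GI mean, so this ratio mostly repeats that of Ano10. The other intracellular members were split, with Ano8 at 0.803 and 0.374 FPKM and Ano5 at 0.0746 and 0.427 FPKM in GE and GI neurons. The plasma membrane sum was 1.60 FPKM in GE against 1.45 FPKM in GI neurons, with a log2 ratio of 0.09 (counting interval -0.29 to 0.48). Its sign turned without GE neuron 6 (-0.11) or without GI neuron 2 (-0.13). The 4 members of disputed place summed to 3.49 and 3.93 FPKM, with a log2 ratio of -0.13, in which the higher Ano4 of GI neurons stood against the higher Ano3 and Ano7 means of GE neurons.

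**Figure D3:**
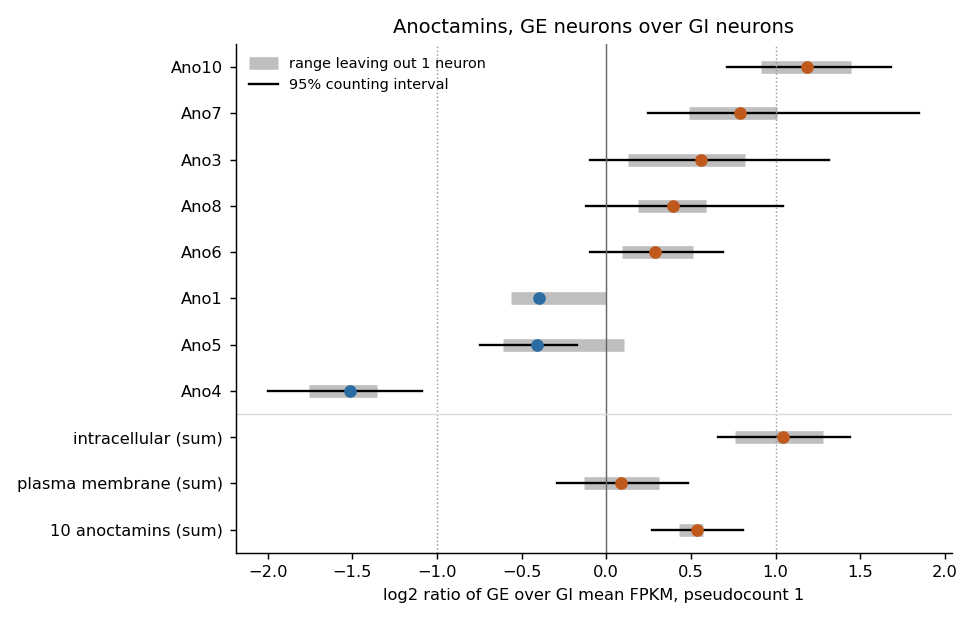
Log2 ratio of the mean FPKM in 4 GE neurons over that in 3 GI neurons (x axis, pseudocount 1) for each listed anoctamin and 3 sums (y axis). Thin lines are 95% counting intervals, which Ano1 lacks, grey bars give the range when 1 neuron is left out, dotted lines mark 2-fold, and Ano4 (-1.51) and Ano10 (1.18) are the members past them.

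**Figure D4:**
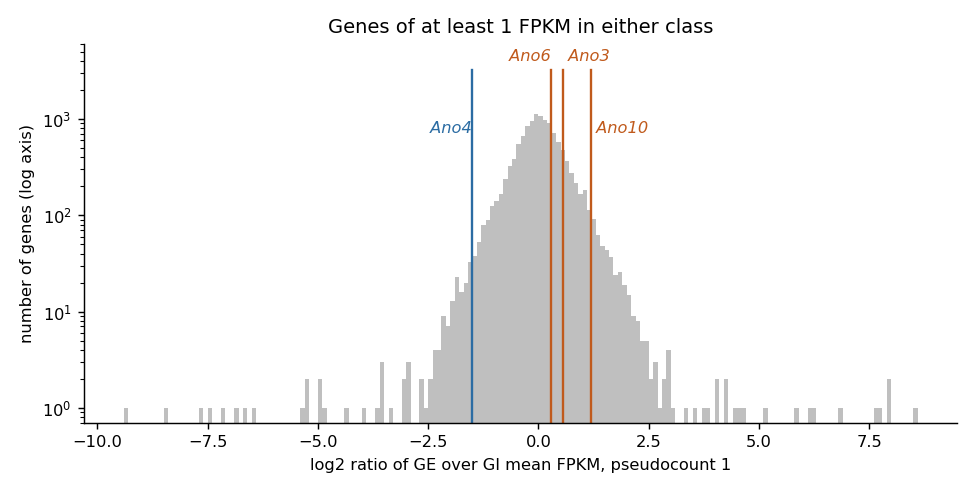
Number of genes (y axis, log scale) by log2 ratio of GE over GI mean FPKM (x axis, pseudocount 1, bins of 0.1) for the 12389 genes of at least 1 FPKM in either class. Vertical lines mark the 4 anoctamins that reach this level, of which Ano4 and Ano10 lie towards opposite tails.

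Over the 12389 genes the median log2 ratio was 0.02, and 52.1% of genes had the higher mean in GE neurons. Only 4 anoctamins (Ano3, Ano4, Ano6 and Ano10) reached 1 FPKM in either class, and their ratios lay above those of 84.4%, 1.24%, 70.9% and 96.3% of these genes.

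Markers of other cells differed in level between the libraries, in part alongside Ano10. Summed FPKM of the 7 oligodendrocyte genes was 462, 1127, 503 and 961 in GE neurons 1, 4, 6 and 8. It was 315, 515 and 622 in GI neurons 2, 5 and 7, with 6 of the 7 genes higher in GE neurons. For the 7 astrocyte genes the sums were 1032, 2050, 2209 and 2621 in the same GE neurons. In the same GI neurons they were 1160, 1751 and 1875, again with 6 of 7 genes higher in GE neurons. GE neuron 1, lowest of the GE neurons in Ano10, was also lowest in both sums, and GE neuron 8, highest in Ano10, was highest in the astrocyte sum. The 7 microglia genes summed to 373, 754, 487 and 920 FPKM in GE neurons 1, 4, 6 and 8, the same order as Ano10 over these neurons, and to 434.7, 484 and 814 FPKM in GI neurons 2, 5 and 7, with 5 of 7 genes higher in GE neurons. Across the classes the orders parted. GI neuron 7, at 3.76 FPKM of Ano10, had a higher microglia sum than GE neuron 4, at 8.79 FPKM. Its oligodendrocyte sum was above that of GE neuron 6, at 6.39 FPKM of Ano10. GI neuron 5, at 1.34 FPKM, had a higher astrocyte sum than GE neuron 1, at 2.36 FPKM. The part of these 3 cell types in the Ano10 values was not tested. The 5 endothelial genes had low sums, 0.253 to 17.6 FPKM in GE and 0.194 to 6.46 FPKM in GI neurons. Cdh5 was at 0 in all 4 GE neurons and in 2 of the 3 GI neurons. Flt1 was listed in 6 of the 7 neurons, Ly6c1 in 4 (up to 16.0 FPKM in a GE neuron), and Cldn5 and Pecam1 in 3 each.

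Genes of neurons of the neighbouring arcuate nucleus were listed too, with higher means in GI neurons for 4 of 6. These genes (Pomc, Agrp, Npy, Cartpt, Sst and Ghrh) summed to 9586 to 11974 FPKM in GE and 9602 to 13925 FPKM in GI neurons. The largest of them was Sst, with class means of 6244 FPKM (GE) and 5792 FPKM (GI). Sst and Ghrh (675 and 662 FPKM) were the 2 with the higher mean in GE neurons. Npy, a feeding neuropeptide, was at 847 FPKM in GE against 1497 FPKM in GI neurons. The 3 GABA neuron genes lay at 51.6 to 70.4 FPKM in GE and 60.8 to 78.9 FPKM in GI neurons. GI neuron 2 had the highest arcuate sum and the highest Ano4. GI neuron 5 had nearly the same Ano4 and an arcuate sum of 9602 FPKM, the lowest of the GI neurons. The part of such RNA in the Ano4 values was not tested. Genes of VMH neurons summed to 449 to 694 FPKM in GE and 383 to 506 FPKM in GI neurons. Most of each sum was Tac1, with class means of 543 FPKM (GE) and 403 FPKM (GI). Of 6 VMH genes that reached 1 FPKM, 4 had their larger mean in the GE class. The reverse held for 2, Nr5a1 (1.18 FPKM in GE, 1.62 in GI) and Adcyap1 (14.8 and 16.2). Fezf1, a transcription factor of the VMH, was the 1 gene of this list past 2-fold, in favour of GE neurons (log2 ratio 1.11). The Fezf1 ratio was 0.89 without GE neuron 6 and 0.95 without GE neuron 8.

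The genes whose pattern over the 7 neurons was most like that of Ano4 were found by Pearson correlation of log2(FPKM + 1) among 12388 other genes. They were B020018G12Rik (r = 0.99), Heatr7a (0.97), Lats2 (0.96), Pik3c2a (0.96) and Ptpn23 (0.95). Lats2 encodes a kinase of the Hippo pathway, Pik3c2a a lipid kinase and Ptpn23 a protein of endosomal sorting. Lats2 lay at 0.308 to 1.13 FPKM in GE neurons and at 4.37, 3.24 and 0.916 FPKM in GI neurons 2, 5 and 7, so that the low GI neuron 7 was shared with Ano4. Heatr7a ran from 0.670 to 1.86 FPKM in GE and from 3.01 to 4.13 FPKM in GI neurons. Each point of these correlations is 1 library, and among so many genes some reach such values over 7 points.

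For Ano10 the likest patterns included those of Tmem134 (r = 0.96), Vps45 (0.95), Lamp1 (0.95) and E330033B04Rik (0.94). Vps45 encodes a regulator of vesicle fusion at endosomes and Lamp1 a membrane protein of lysosomes. Lamp1 lay at 47.6, 97.8, 69.3 and 132 FPKM in GE neurons 1, 4, 6 and 8 and at 60.4, 40.7 and 78.6 FPKM in GI neurons 2, 5 and 7. Like Ano10, it was lowest in GI neuron 5 and highest in GE neuron 8. Between the members themselves, Ano4 and Ano10 had r = -0.79 over the 7 neurons, and the other 9 pairs of members listed in 5 or more neurons ranged from -0.48 to 0.32.

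Genes related by function were counted in the same way. A list of 13 genes outside the family grouped bestrophins with CLCA and tweety proteins, which have been linked to calcium-activated chloride currents. Of these, 8 were listed and 3 reached 1 FPKM, with 0 past 2-fold in either direction and a median log2 ratio of 0.04. The 3 were all tweety homologues, and whether they act as such channels was not examined here. Ttyh1, a tweety homologue abundant in brain, was at 24.5 FPKM in GE against 23.8 FPKM in GI neurons, above any anoctamin. Ttyh3 (2.89 and 3.06 FPKM) and Ttyh2 (2.35 and 1.90 FPKM) were lower, and Best1, a bestrophin chloride channel, was at 0.741 and 0.311 FPKM.

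TMC and TMEM63 proteins are the nearest relatives of the anoctamin fold and include mechanically gated channels. All 11 genes were listed and 6 reached 1 FPKM, of which 2 had the higher mean in GE and 4 in GI neurons, with a median log2 ratio of -0.27. Tmem63a, an osmosensitive cation channel, was past 2-fold in favour of GI neurons, at 1.20 FPKM in GE against 4.18 FPKM in GI neurons (log2 ratio -1.24, and -0.997 without GE neuron 8). Tmem63b was at 8.50 and 9.79 FPKM, Tmc2, a channel of hair cells, at 2.32 and 3.63 FPKM, and Tmc4 at 2.55 and 2.21 FPKM.

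Of 22 phospholipid scramblases and flippases outside the family, 17 reached 1 FPKM, 6 of them higher in GE and 11 higher in GI neurons, with a median log2 ratio of -0.33. The most abundant were Atp9a (45.0 FPKM in GE and 38.3 in GI neurons), Tmem30a, the shared subunit of flippases (25.9 and 24.2), Vmp1, a scramblase of the endoplasmic reticulum (23.3 and 20.8), and the flippase Atp8a1 (10.1 and 13.8). Plscr2, a phospholipid scramblase, was the 1 gene of the list past 2-fold in favour of GI neurons, at 0.911 and 3.83 FPKM, but GI neuron 7 alone held 9.79 FPKM and the log2 ratio went from -1.34 to 0.04 without it. It is named outside the rule for its value. Of 16 genes of calcium stores, store-operated entry and calmodulin, 11 reached 1 FPKM and 0 lay past 2-fold, with a median log2 ratio of -0.08. Calm2 and Calm3, which encode the calcium sensor calmodulin, were high in both classes, with Calm2 at 2552 and 2589 FPKM and Calm3 at 263 and 239 FPKM, and Atp2a2, the calcium pump of the endoplasmic reticulum, was at 16.5 and 17.9 FPKM.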

How the data were processed

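The labels name SMART-Seq v4 amplification, Nextera libraries and 100 bp paired-end reads on a HiSeq instrument. The authors deposited FPKM values with lower and upper bounds for each neuron, and a quality table with read numbers and the fraction of reads mapped. Tool, annotation and build of these tables were not given in the sources used here. Trim Galore 0.4.1, STAR 2.5.3a and featureCounts 1.6.0, named in the submitters' processing notes, made counts for the study's own test that were not used here. Positions and sequences are from GENCODE vM21 on GRCm38.

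Groups were taken from sample titles. Class levels are means over GE neurons 1, 4, 6 and 8 and GI neurons 2, 5 and 7, and log2 ratios carry a pseudocount of 1 and were called at 2-fold. Gene names with several loci (110) or turned into dates (24) were left out, and background shares use genes of at least 1 FPKM in either class. Fragments are (2 × FPKM / (upper bound − FPKM)) squared, whole within 0.05 for 21 of the 37 listed values of the members. Counting intervals are exact Clopper-Pearson intervals (95%) of the split of fragments between classes. No test between classes was run, since each class is 1 sample. Named genes are the 10 members, the 4 most abundant genes of each of 4 related lists, the 5 genes most like Ano4 and Ano10, and 8 marker lists, and 2 of the genes so named are not reported here. Members and lists were chosen with earlier results of these data known. Protein sequences were not analysed here. Scripts used Python 3.11.15, numpy 2.4.6, pandas 2.3.3 and scipy 1.17.1 and were tested on simulated data.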

Additional observations from a re-analysis of the deposited data

Results flagged for a closer look

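Within the 4 GE neurons, the summed FPKM of the 10 anoctamins was 16.2 in GE neuron 8, far from the other 3, which lay between 12.1 and 12.4. Its gap to the nearest of them was 0.922 of the whole range, above Dixon's 95% critical value for 4 values. Among the 11 quantities examined in this way (8 members are listed, 1 of which no GE neuron lists, and 4 are sums) this was the 1 past it, and chance passes about 1 in 20 groups. Ano10, at 11.5 FPKM, made up most of the sum in that neuron.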

How the results depend on the processing

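Every class difference rests on few fragments and on 1 sample a class, and no counting interval covers differences between animals. The ratios were recomputed with the median of the neurons, with GI neuron 3, without each neuron, with a pseudocount of 0.1 or 5, under 3 other scalings and weighted by depth. No paired analysis was possible because the labels do not say from which of the 2 mice each neuron came.

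The log2 ratio of Ano4 stayed below 0 in all 16 alternatives. It was -2.93 with a pseudocount of 0.1, -0.53 with 5 and -3.36 with none (the last chosen after seeing the data), by construction, since a pseudocount draws low levels together. The intracellular sum, whose class means are mostly Ano10, stayed above 0 in all 16. It was 0.44 with GI neuron 3 added, whose 12.6 FPKM is 1 fragment of Ano10. A pseudocount of 5 gave 0.64, and adding the 4 members of disputed place gave 0.60. The intracellular sum also fell under 2-fold by the median of ratios (0.98) and by depth weighting (0.84). The plasma membrane sum changed sign in 3 of 16, among them the addition of the members of disputed place (-0.06). The family sum stayed above 0 in all 15, from 0.40 to 0.58. Leaving out 1 neuron gave -1.76 to -1.36 for Ano4, 0.76 to 1.28 for the intracellular sum, -0.13 to 0.31 for the plasma membrane sum and 0.43 to 0.57 for the family.

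Ano10 kept its sign in all 16 alternatives, at 0.43 with GI neuron 3, 0.68 with a pseudocount of 5 and 0.99 weighted by depth. Ano3, Ano6, Ano7 and Ano8 kept theirs in all 15, whereas Ano1 and Ano5 lost it in 2 each, by the median and without the 1 GI neuron that carried them. The number of members higher in GE neurons was 5 or 6. Spearman correlation kept 2 of the 5 genes named for Ano4 and 1 of the 5 for Ano10. The folds of Ano4 and the ratios of Plscr2, Tmem63a and Fezf1 without single neurons were also chosen after seeing the data.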
